A study of Mus musculus with 15 samples.

Results

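The complement genes described here are 9 mouse genes whose products form, sense or restrain the complement cascade: C1qa, C1qb, C1qc, C3, C4b, C3ar1, C5ar1, Serping1 and Cd59a. They were picked by symbol from the 46078 genes of a read count table, and all 9 passed the filter on low counts that left 18974 genes for testing. The table holds 15 libraries of poly(A) RNA, each from a dissected brain region of 1 mouse aged 12 months; the region is not named in the sources used here. The 3 groups of 5 mice were wild type (WT) with PBS, APP-PS1 with PBS, and APP-PS1 with an antibody to CD8a, a surface co-receptor of cytotoxic T cells.

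APP-PS1 mice carry transgenes for amyloid precursor protein (a mouse/human chimera, Swedish mutation) and for human presenilin 1 in its mutant form PS1-dE9. Both are driven by the prion protein promoter and aimed at neurons of the central nervous system, and the animals deposit amyloid plaques. The antibody was given intraperitoneally over 4 weeks as 10 doses of 0.8 mg. Mice of the PBS groups received 100 µL of PBS, and a control antibody named in the protocol was not analysed here. By their labels the WT group held 4 females and 1 male, and each APP-PS1 group held 2 females and 3 males. Nothing in the labels says that mice share a litter or a day.

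Complement is a chain of plasma and tissue proteins that marks surfaces for removal. In the classical route, C1q, a hexamer of trimers built from the A, B and C chains, binds a surface and starts the cleavage of C4 and then of C3. Fragments of C3 and C5 signal through the receptors C3aR1 and C5aR1, while inhibitors such as the C1 inhibitor (Serping1) and CD59 hold back the first and the last step. In brain, C1q is made mostly by microglia, and C4 by astrocytes and, in aged or diseased tissue, oligodendrocytes; both have been studied for the tagging of synapses in mouse models of amyloid deposition.

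Gene counts per library ran from 17736524 to 36485809, so that 3 counts equal 0.0822 to 0.169 CPM (counts per gene scaled to the library size). All CPM values here are scaled by TMM factors. App and Prnp, which the transgene constructs carry in part, lay at 2420 to 3170 and 1935 to 2643 CPM in the 10 APP-PS1 libraries, against 1227 to 1317 and 985 to 1060 CPM in WT. Cd8a gave 33, 42 and 53 counts in all of the WT, PBS-treated and antibody-treated APP-PS1 libraries together. Neuron markers summed to between 6454 and 7299 CPM in every library. The 5 libraries named next were rich in RNA of the choroid plexus, the tissue that secretes cerebrospinal fluid. These were WT replicates 3 and 5, PBS-treated APP-PS1 replicates 2 and 5 and antibody-treated replicate 1, with 1652 to 6500 CPM of its marker Ttr, against 21.0 to 107 CPM in the other 10. The library labelled as male and PBS-treated APP-PS1 replicate 1 had the sex-linked gene pattern of a female. Results on members that differ in these libraries are given with and without them. Without the choroid-rich libraries the WT group kept replicates 1, 2 and 4, all female. Such fits take their sex term from the APP-PS1 mice alone.

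Levels per kilobase of exon separated the members in WT brain. C1qa stood highest, at 40.4 ± 4.31 CPM per kilobase (SD, n = 5), followed by C1qb at 33.2 ± 3.88, C1qc at 17.6 ± 1.83 and C4b at 14.9 ± 2.15. The ranges of C1qa and C1qb overlapped (37.2 to 48.0 and 30.5 to 39.9), as did those of C1qc and C4b (16.1 to 20.7 and 11.8 to 17.4). Divided by the length of its longest coding transcript, 1203 bases in place of 1931, C1qc came to 28.2 ± 2.94 CPM per kilobase, still below C1qb and above C4b, with a range that overlapped that of C1qb and not that of C4b. Cd59a (5.04 ± 3.04) and Serping1 (3.43 ± 1.85) formed a middle tier with overlapping ranges, and C3ar1 (0.878 ± 0.183), C3 (0.833 ± 0.389) and C5ar1 (0.483 ± 0.116) were lowest. By this measure C3, the central protein of the cascade, was near the bottom as mRNA, at about the level of its receptor, and the ranges of C3 and C3ar1 overlapped. Reads over exon junctions can be lost from these counts. C3 has 42 exon blocks and C4b 40, against 3 for each C1q chain and 2 for C3ar1. The effect of such losses on this order was not tested.

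In APP-PS1 mice given PBS, 6 of the 9 members were higher than in WT and none was lower. The 6 were the C1q chains, C4b and the receptors C3ar1 and C5ar1. Over all 18974 genes, 178 were higher, or 0.938%, and 0.0896% were lower by the same rule, an adjusted p under 0.05 in edgeR's quasi-likelihood test with labelled sex as a covariate and Benjamini-Hochberg adjustment. The median log2 fold change was 0.85 over the 9 members and -0.01 over all genes tested. For the same 6 members every APP-PS1 library lay above every WT library, which held for 1.88% of all genes. Without the libraries rich in choroid plexus, 5 of the 6 passed, all but C5ar1, with log2 fold changes of 1.23, 1.10 and 1.03 for C1qa, C1qb and C1qc, 1.46 for C4b and 1.77 for C3ar1. No WT mouse labelled male was left in that fit, so these estimates rest on the sex term from the APP-PS1 mice. That term was 0.69 for C1qa, against 0.49 with all libraries. C3, Serping1 and Cd59a did not pass. As these are bulk tissue samples, more cells of a type and more RNA per cell cannot be told apart in any of these differences.

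**Figure D1:**
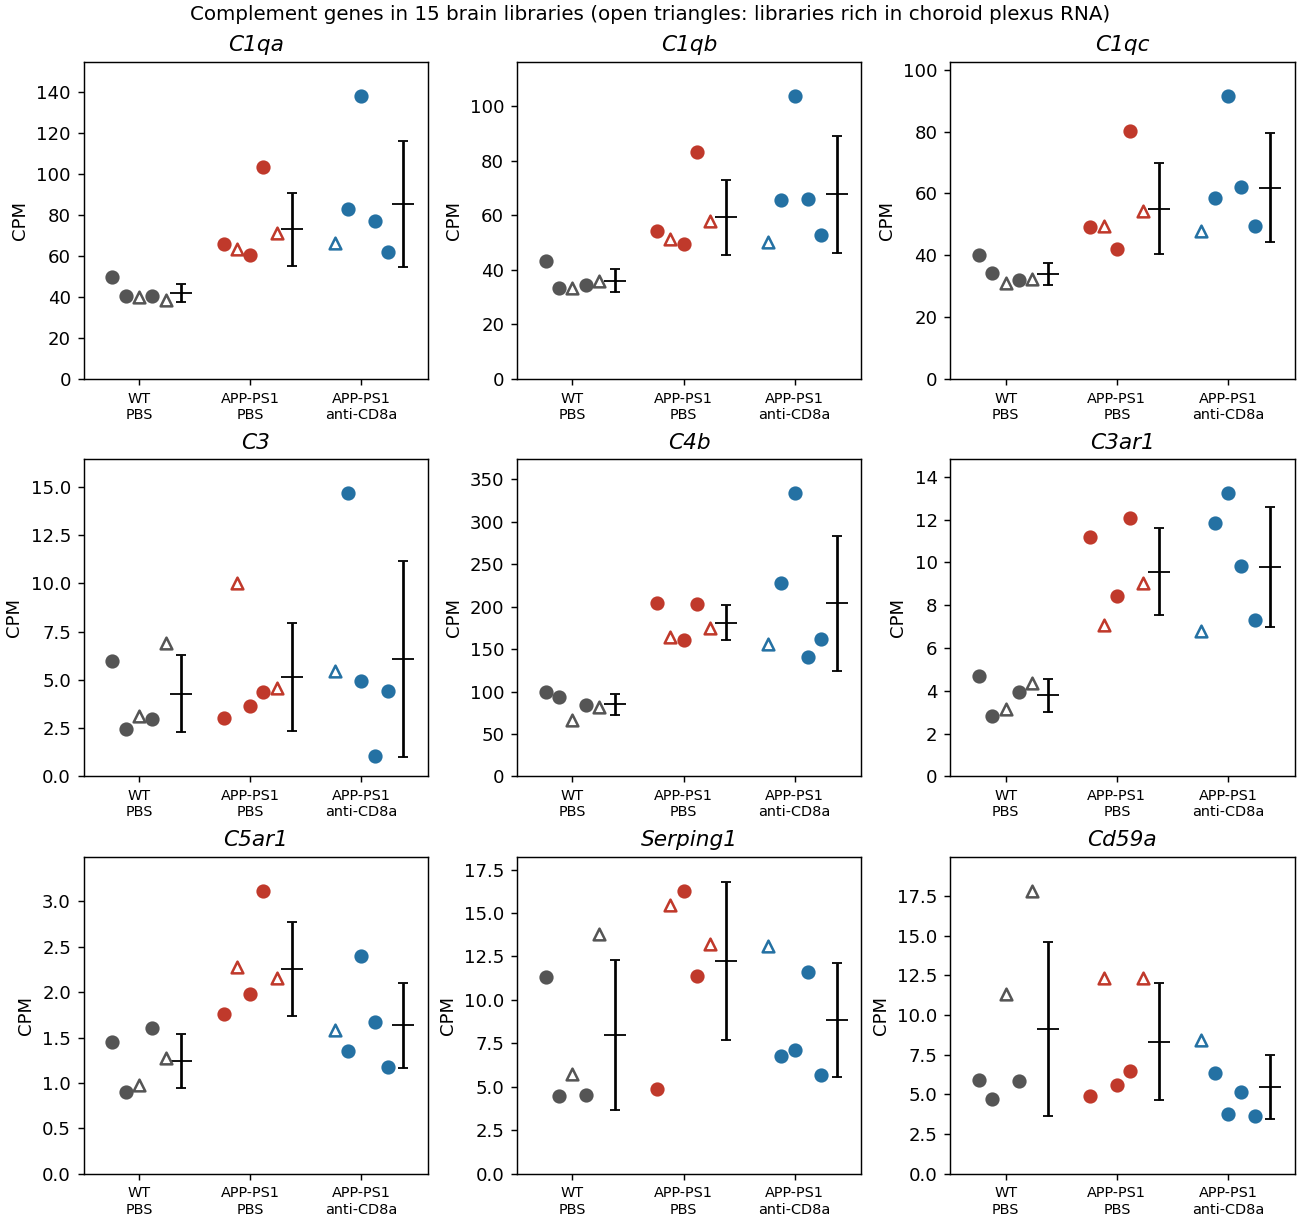
CPM of the 9 members (y axis, from 0) in each library of the 3 groups (x axis); black bars give the mean and SD of 5 libraries, and open triangles are the 5 libraries rich in choroid plexus RNA. C1qa, C1qb, C1qc, C4b and C3ar1 show no overlap between WT and either APP-PS1 group, and the open triangles of Cd59a, 8.45 to 17.8 CPM, lie above all filled circles, 3.63 to 6.47 CPM.

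The C1q chains lie side by side on the minus strand of chromosome 4 within 18.675 kb (GRCm38 chr4:136880129-136898803), C1qb first, then C1qc and C1qa. C1qa, which encodes the A chain, had 49.9, 40.6, 40.1, 40.8 and 38.7 CPM in WT replicates 1 to 5. In PBS-treated APP-PS1 mice it had 65.8, 63.5, 60.6, 104 and 71.5 CPM. The lowest APP-PS1 library was above the highest WT library, and replicate 4 stood well above its group. The fitted log2 fold change was 0.97 (SE 0.15, adjusted p = 0.00247), a 1.95-fold difference with a 95% interval of 1.58 to 2.42.

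C1qb, the B chain, had 43.4, 33.5, 33.2, 34.5 and 35.8 CPM in WT and 54.1, 51.3, 49.5, 83.3 and 57.8 CPM in PBS-treated APP-PS1 mice. C1qc, the C chain, had 40.0, 34.2, 31.2, 32.2 and 32.4 CPM in WT and 49.1, 49.6, 41.9, 80.1 and 54.5 CPM in PBS-treated APP-PS1 mice. Both repeated the pattern of C1qa, with replicate 1 highest in WT and replicate 4 highest in APP-PS1. The log2 fold changes were 0.85 for C1qb (SE 0.15, adjusted p = 0.00743) and 0.83 for C1qc (SE 0.14, adjusted p = 0.00718). Without the sex covariate the differences were 0.80, 0.71 and 0.69 for C1qa, C1qb and C1qc. The adjusted p rose to 0.0808, 0.0954 and 0.103, above the threshold, so none of the 3 passed. With sex read from sex-linked genes, which moves the mislabelled library to the females, all 3 passed (0.87, 0.77 and 0.75; adjusted p = 0.00677, 0.0168 and 0.0183). Of the genes on either side of the cluster, Epha8, at a mean of 2.66 CPM, had a log2 fold change of 0.55 (adjusted p = 0.574) and Ephb2 one of -0.13; their difference from the chains was not tested.

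The chains kept similar proportions in all 15 libraries, with a small shift of C1qa between groups. Of the summed CPM of the chains, C1qa made 38.6 ± 1.36%, C1qb 31.8 ± 0.749% and C1qc 29.5 ± 1.11% (SD, n = 15). The C1qa share was 36.2 to 38.4% in WT and 38.6 to 39.8% in PBS-treated APP-PS1 mice. In antibody-treated mice it was 37.5 to 41.4%, and these differences were not tested. After each group's mean was taken off, log2 CPM of C1qa and C1qb correlated with Pearson's r = 0.98 and Spearman's rho = 0.88 (n = 15, permutation within groups, adjusted p = 0.00276 and 0.00621 over 36 pairs of members). Without the 2 libraries farthest out, r was 0.93. By the same measure C1qa and C4b gave r = 0.79 and rho = 0.69 (adjusted p = 0.027 and 0.0787), and r = 0.59 without the 2 farthest. For C1qa with C3 and with Serping1, r was 0.08 and -0.04.

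The starts of C1qb and C1qc are shown because these genes moved together, and those of C3ar1 and C3 because the receptor passed the test and its ligand's precursor did not. The sequences are RefSeq's (GRCm38.p6), 5′ to 3′ on the gene's strand, and cover the part of the 250 bases before the RefSeq start that lies before any annotated exon. RefSeq's table held 6 of the 9 members. They are chr4:136886201-136886450 for C1qb, chr4:136893066-136893164 for C1qc, chr6:122856162-122856407 for C3ar1 and chr17:57228137-57228386 for C3, all on the minus strand. Capitals mark matches to the motifs searched on both strands: the ETS core GGAAGT, its longer form GAGGAAGT, the NF-kB form (GGGA and CCC parted by any 3 bases), the interferon form (GAAA and GAAA parted by any 2) and the STAT form TTCNNNGAA.
C1qb: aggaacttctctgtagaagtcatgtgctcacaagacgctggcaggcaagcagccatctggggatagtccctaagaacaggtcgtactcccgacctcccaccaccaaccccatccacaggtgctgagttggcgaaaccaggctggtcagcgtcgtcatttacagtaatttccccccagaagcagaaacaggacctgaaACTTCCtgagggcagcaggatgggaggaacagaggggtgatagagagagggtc
C1qc: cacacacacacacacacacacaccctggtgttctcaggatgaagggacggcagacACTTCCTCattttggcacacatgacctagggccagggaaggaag
C3ar1: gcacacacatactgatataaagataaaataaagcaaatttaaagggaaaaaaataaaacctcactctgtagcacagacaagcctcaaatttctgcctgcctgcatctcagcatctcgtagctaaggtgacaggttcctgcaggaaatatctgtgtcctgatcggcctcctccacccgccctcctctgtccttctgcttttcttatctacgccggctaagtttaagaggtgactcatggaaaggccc
C3: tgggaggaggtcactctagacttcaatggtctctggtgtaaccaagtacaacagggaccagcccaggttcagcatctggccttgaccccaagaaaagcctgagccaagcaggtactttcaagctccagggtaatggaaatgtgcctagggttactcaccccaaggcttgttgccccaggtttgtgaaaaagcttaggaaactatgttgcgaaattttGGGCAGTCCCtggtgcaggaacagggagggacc
C1qb held the ETS core on the opposite strand 53 bases before the start, and C1qc held the longer form, which contains the core, 195 bases before its RefSeq start. In 32851 promoters of the table, 19.74% held the core in a window as long as that of C1qb, and 0.7762% held the longer form in one as long as that of C1qc. C3 held the NF-kB form 33 bases before the start, as 4.77% of promoters did, and the C3ar1 window held none of the 5 motifs. The C1qc window is cut short. Over the full 250 bases, C1qc held the NF-kB form too, and C5ar1 held the ETS core beside C1qb and C1qc. A match is a string of letters only, and no binding was measured here.

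C4b, on chromosome 17 (chr17:34728380-34743882, minus strand), encodes the complement component that C1 cleaves after C1q has bound. It had 99.1, 93.2, 66.9, 84.0 and 82.2 CPM in WT replicates 1 to 5 and 205, 164, 161, 203 and 175 CPM in PBS-treated APP-PS1 mice. The lowest of the APP-PS1 libraries, at 161 CPM, was well above the highest WT library, at 99.1 CPM. The log2 fold change was 1.25 (SE 0.17, adjusted p = 0.00102), or 2.37-fold with a 95% interval of 1.85 to 3.04, and it passed without the sex covariate (1.09, adjusted p = 0.0129). Its paralog C4a lies 65.209 kb away and shares 22.67% of the 75-base stretches of C4b transcripts, so reads from those stretches cannot be placed with certainty. C4a had 2.96 to 5.38 CPM over all 15 libraries and a log2 fold change of -0.07 (adjusted p = 0.899).

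C3, on chromosome 17 (chr17:57203970-57228136), is the protein on which all activation routes converge. It had 5.96, 2.46, 3.11, 2.99 and 6.90 CPM in WT and 3.02, 10.0, 3.66, 4.39 and 4.58 CPM in PBS-treated APP-PS1 mice. The groups overlapped, and the log2 fold change of 0.31 had an interval of -0.80 to 1.42 (adjusted p = 0.861). A change of the size seen for C4b lies inside that interval, so it was not excluded with this spread between mice. C3 moved with markers of ependymal cells, the ciliated lining of the ventricles: log2 CPM of C3 and of the 7 summed markers, each less its group mean, gave r = 0.86 and rho = 0.90 (n = 15, permutation within groups, adjusted p = 0.00108 and 0.00216 over 108 relations of members with marker lists). Without the 2 farthest libraries r was 0.79. Antibody-treated replicate 4 had the lowest C3, 1.04 CPM, and the lowest ependymal sum, 10.4 CPM, of all 15 libraries. The 3 genes of 15669 most like C3 over the libraries, by the same group-centred r, were Lrrc71 (0.93), Cfap57 (0.93) and Dnaic2 (0.91), the last of which encodes a dynein chain of motile cilia. The part of ependymal RNA in the C3 values was not tested.

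The receptors rose in PBS-treated APP-PS1 mice. C3ar1 (chr6:122847138-122856161), the receptor for the C3a fragment, had 4.67, 2.82, 3.14, 3.92 and 4.35 CPM in WT and 11.2, 7.08, 8.41, 12.1 and 9.06 CPM in PBS-treated APP-PS1 mice. No library of one group reached the other. Its log2 fold change of 1.44 (SE 0.20, adjusted p = 0.00102) was the largest of the 9, a 2.71-fold difference with an interval of 2.03 to 3.61, which overlaps those of the C1q chains and C4b. It passed without the sex covariate (1.33, adjusted p = 0.00413).

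C5ar1 (chr7:16246743-16259540), the receptor for the C5a fragment, was the scarcest member per kilobase. It had 1.45, 0.903, 0.979, 1.60 and 1.27 CPM in WT and 1.76, 2.28, 1.98, 3.12 and 2.15 CPM in PBS-treated APP-PS1 mice, from 188 and 306 counts in all. The groups did not overlap, but the highest WT library (1.60 CPM) came close to the lowest APP-PS1 library (1.76 CPM). The log2 fold change was 0.97 (SE 0.22, adjusted p = 0.0416), just past the threshold. It passed in 13 of 29 alternative settings, with adjusted p from 0.00579 to 0.683. It missed with sex read from genes (0.90, adjusted p = 0.0719), without the sex covariate (0.87, adjusted p = 0.092), with the series of animal numbers (83 or 85) as a term (0.97, adjusted p = 0.0568), without the libraries rich in choroid plexus (1.13, adjusted p = 0.279) and when any of 9 of the 15 libraries was left out. Leaving out WT replicate 1, 2 or 3, PBS-treated APP-PS1 replicate 2, 3, 4 or 5, or antibody-treated replicate 1 or 5 each ended the call, with adjusted p from 0.051 to 0.107. Its neighbour C5ar2, a second C5a receptor, had a log2 fold change of 0.63 (adjusted p = 0.216).

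**Figure D2:**
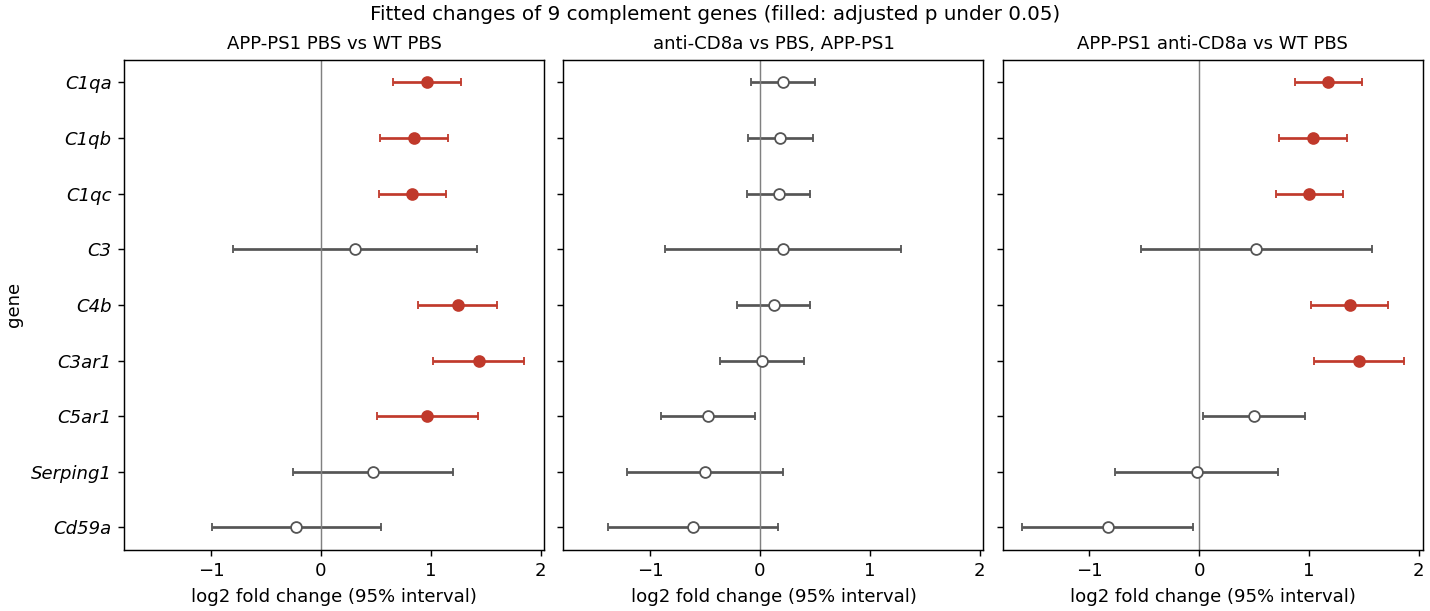
Fitted log2 fold changes (x axis) with 95% intervals of the 9 members (y axis) in the 3 comparisons; filled points have an adjusted p under 0.05. The C1q chains, C4b and C3ar1 lie between 0.83 and 1.45 in both comparisons with WT, and all 9 intervals of the treatment comparison but that of C5ar1 include 0.

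The inhibitors did not pass the test. Serping1 (chr2:84765387-84775444), which encodes the C1 inhibitor, had 11.3, 4.48, 5.73, 4.51 and 13.8 CPM in WT and 4.88, 15.4, 16.3, 11.4 and 13.2 CPM in PBS-treated APP-PS1 mice. Each group held libraries near 5 and libraries above 11 CPM. The log2 fold change was 0.48 (SE 0.34, interval -0.25 to 1.20, adjusted p = 0.624), and 0.58 for Serping1 with the choroid-rich libraries left out. Cd59a (chr2:104095801-104115354, plus strand) encodes a membrane-anchored protein that blocks the membrane attack complex. It had 5.90, 4.69, 11.3, 5.86 and 17.8 CPM in WT and 4.92, 12.3, 5.59, 6.47 and 12.3 CPM in PBS-treated APP-PS1 mice, and the fitted log2 difference was -0.22 (SE 0.36, adjusted p = 0.857). Its paralog Cd59b ends 4.613 kb upstream and shares 1.657% of the 75-base stretches of Cd59a. Cd59b had 1.33 to 2.40 CPM over all libraries, with a log2 fold change of -0.09 (adjusted p = 0.843).

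The spread of both inhibitors went with RNA of tissues at the edge of the brain. Cd59a had 8.45 to 17.8 CPM in the 5 libraries rich in choroid plexus and 3.63 to 6.47 CPM in the other 10, with no overlap. Because the libraries form separate clusters in choroid plexus RNA, no pooled correlation is given. Without those 5 libraries the log2 fold change of Cd59a between PBS-treated APP-PS1 and WT was 0.21, and with choroid plexus markers as a term it was 0.04, in place of -0.22. For Serping1 the libraries parted by markers of border macrophages, the resident macrophages of the meninges and vessels. In 8 libraries these 8 markers summed to 20.7 to 32.6 CPM, those of mural cells and fibroblasts to 427 to 524 CPM, and Serping1 lay at 11.3 to 16.3 CPM. In the other 7 the sums were 9.26 to 13.3 and 308 to 389 CPM, and Serping1 lay at 4.48 to 7.09 CPM. Within the 8 libraries Serping1 and the mural and fibroblast sum gave r = 0.64 and rho = 0.50 (exact permutation p = 0.0968 for r), and within the 7 they gave r = -0.62 and rho = -0.64 (exact permutation p = 0.134). The 8 libraries comprised 2 WT, 4 PBS-treated and 2 antibody-treated APP-PS1 mice. By the group-centred ranking the genes most like Serping1 were Colec12, Islr and Vtn, Vtn being the pericyte gene for vitronectin, itself a complement inhibitor and one of the mural markers. Those most like Cd59a were Sult1c2, Scara5 and Cox8b. This ranking runs over all 15 libraries and so includes the gap between the clusters, and its r is not given for either gene. How much of either gene's RNA came from these tissues was not tested.

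**Figure D3:**
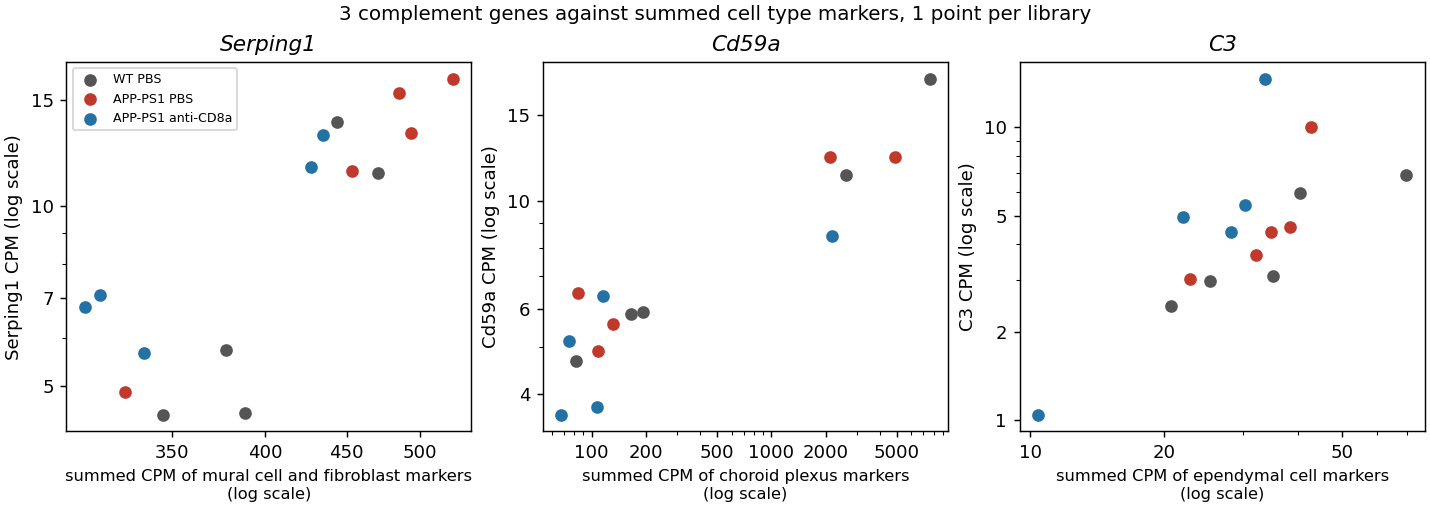
Serping1, Cd59a and C3 in CPM (y axes) against the summed CPM of mural cell and fibroblast, choroid plexus and ependymal cell markers (x axes), 1 point per library, all axes on log scales. Serping1 lies at 4.48 to 7.09 CPM in the 7 libraries with the lowest sums and at 11.3 to 16.3 CPM in the other 8, Cd59a is highest in the 5 libraries rich in choroid plexus, and C3 and the ependymal sum are both lowest in the same antibody-treated library.

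The members that rose were set beside markers of the cells that could carry them. The 12 homeostatic microglia markers summed to 462 to 548 CPM in WT and 669 to 852 CPM in PBS-treated APP-PS1 mice, without overlap, and 6 of the 12 rose by themselves. The 12 markers of plaque-associated microglia summed to 201 to 257 and 344 to 486 CPM, and 7 of the 12 rose. The 10 astrocyte markers summed to 7301 to 8043 and 8289 to 9302 CPM, also without overlap, and Gfap and Aqp4 rose. Of all genes tested, 0.938% were higher by the same rule. No marker of these lists was at or under 3 counts in all libraries. The part of these shifts in the complement differences was not tested.

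As a percentage of the homeostatic microglia sum, C1qa overlapped between the groups, at 7.44 to 9.49% in WT and 8.52 to 12.2% in PBS-treated APP-PS1 mice, and so did C1qb, C1qc and C5ar1. C4b did not overlap on this scale, at 14.5 to 18.8% and 22.6 to 28.1%. Nor did C3ar1, at 0.550 to 0.887% and 1.06 to 1.54%. As a percentage of the plaque-associated sum, C4b overlapped (32.0 to 45.8% and 41.7 to 54.4%), while C3ar1 did not (1.38 to 1.95% and 2.06 to 2.97%). The astrocyte sum differed less between these groups than the members that rose did, so percentages of it stay close to CPM. As a percentage of the astrocyte sum, C4b was 0.917 to 1.24% in WT and 1.86 to 2.34% in PBS-treated APP-PS1 mice. C1qa (0.505 to 0.622% in WT and 0.701% or more in PBS-treated APP-PS1 mice), C1qb (0.417 to 0.541% and 0.574 to 0.896%) and C3ar1 (0.0350 to 0.0591% and 0.0854 to 0.130%) did not overlap on that scale either, while C1qc and C5ar1 did.

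Among mice of the same group the members also went with these sums. C1qa and the homeostatic microglia sum gave r = 0.91 and rho = 0.91 (n = 15, group means taken off, permutation within groups, adjusted p = 0.0114 and 0.00378 over the 108 relations), and r = 0.83 without the 2 farthest libraries. C4b and the astrocyte sum gave r = 0.92 and rho = 0.87 (adjusted p = 0.00691 and 0.00961), and r = 0.85 without the 2 farthest. With the homeostatic microglia sum C4b gave r = 0.83 and rho = 0.71 (adjusted p = 0.035 and 0.0478), and r = 0.58 without the 2 farthest. The C1q chains also went with the astrocyte sum by r, at 0.84 for C1qa, 0.81 for C1qb and 0.77 for C1qc (adjusted p = 0.00984, 0.0153 and 0.0187). Their rho was 0.80, 0.64 and 0.61 (adjusted p = 0.0226, 0.149 and 0.149), so C1qb and C1qc did not pass by rank. Without the 2 farthest libraries r was 0.68, 0.59 and 0.57. Differences between any of these r values were not tested. C3ar1 gave r = 0.78 and rho = 0.85 with the plaque-associated sum (adjusted p = 0.00648 and 0.00661; r = 0.79 without the 2 farthest). By gene, the 3 most like C1qa included Fcrls and Hexa (each r = 0.96), those most like C1qb included Fcrls and Ptpn6 (0.96 and 0.95), and those most like C1qc included Selplg and Hexa (0.92 and 0.92). C4b was most like Nckap1l, Fcgr2b and Laptm5 (0.93, 0.91 and 0.90), C3ar1 like Erich5, Oaf and St14 (0.96, 0.94 and 0.91), and C5ar1 like Fam111a, Alox5ap and Ctsh (0.91, 0.89 and 0.88).

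**Figure D4:**
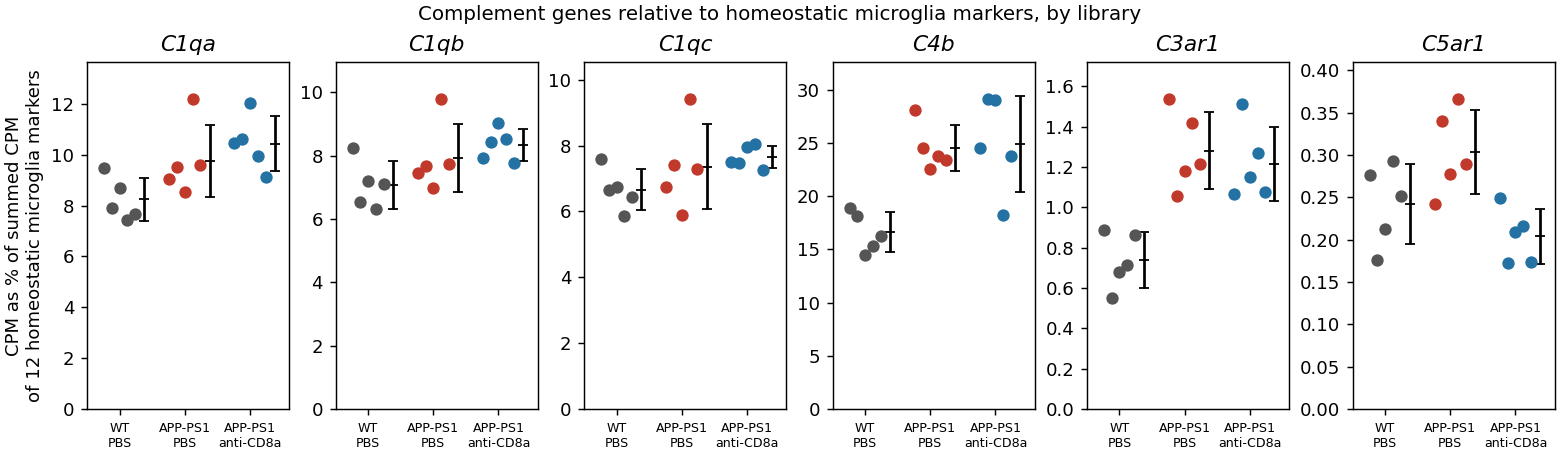
CPM of 6 members as a percentage of the summed CPM of 12 homeostatic microglia markers (y axes, from 0), 1 point per library, with the mean and SD of 5 libraries in black. C4b (14.5 to 18.8% in WT, 22.6 to 28.1% in PBS-treated APP-PS1 mice) and C3ar1 do not overlap between those groups, while the C1q chains and C5ar1 do.

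Treatment with the CD8a antibody left no member past the threshold against PBS-treated APP-PS1 mice. None of the 18974 genes passed (0%) in edgeR's quasi-likelihood test. Of these, 2529 (13.3%) had an unadjusted p under 0.05, and DESeq2 called 143 genes, none of them a member. C5ar1 had a value in 28 of the 29 alternative settings of this comparison. Whether DESeq2 gave it an adjusted p here is not shown. C1qa had 66.4, 83, 138, 77.0 and 61.8 CPM in antibody-treated replicates 1 to 5, a log2 fold change of 0.21 with an interval of -0.08 to 0.50 (adjusted p = 0.503). That interval excludes a change of the size seen against WT in either direction. Replicate 3 carried most of the difference: without it the log2 fold change of C1qa was 0.04. C1qb (50.4, 65.7, 104, 66.0 and 52.8 CPM) and C1qc (47.7, 58.4, 91.5, 62.2 and 49.4 CPM) had 0.19 (interval -0.11 to 0.48) and 0.17 (interval -0.12 to 0.46).

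C4b had 156, 227, 333, 141 and 162 CPM in antibody-treated mice, overlapping the PBS group on both sides, with a log2 fold change of 0.12 (interval -0.21 to 0.46). C3ar1 had 6.77, 11.8, 13.2, 9.82 and 7.32 CPM, with 0.02 (interval -0.37 to 0.40). C3 had 5.45, 14.7, 4.93, 1.04 and 4.40 CPM, the widest relative spread of any member in any group, with 0.21 (interval -0.86 to 1.29). C5ar1 went the other way from the C1q chains. It had 1.58, 1.35, 2.40, 1.67 and 1.17 CPM, with -0.47 on the log2 scale (SE 0.20, unadjusted p = 0.0338, edgeR's adjusted p = 0.342), and the groups overlapped. Serping1 (13.1, 6.77, 7.09, 11.6 and 5.68 CPM) and Cd59a (8.45, 6.37, 3.76, 5.15 and 3.63 CPM) had -0.50 and -0.61, with intervals of -1.21 to 0.21 and -1.39 to 0.16. Only 1 of the antibody-treated libraries was rich in choroid plexus, against 2 in each other group; without the rich libraries Cd59a had -0.31 and Serping1 -0.48.

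Antibody-treated APP-PS1 mice against WT gave 5 of the 9 members higher and none lower, where 334 of all genes, 1.76%, were higher and 0.184% lower. This comparison joins genotype and treatment, and it shares the WT mice with the first. C1qa had a log2 fold change of 1.17 (SE 0.14), C1qb 1.04 (0.15), C1qc 1.00 (0.14), C4b 1.37 (0.16) and C3ar1 1.45 (0.19), with adjusted p of 0.000298, 0.000972, 0.00105, 0.000247 and 0.00056. For these 5 no antibody-treated library overlapped a WT library, which held for 2.2% of all genes, and each passed without the sex covariate. C5ar1, which had passed in PBS-treated mice, had 0.50 (interval 0.03 to 0.96, adjusted p = 0.372). C3 had 0.52 and Serping1 -0.02, and Cd59a had -0.83 (interval -1.61 to -0.05, adjusted p = 0.376), which came to -0.098 with the choroid-rich libraries left out.

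Estimates for females against males within groups were positive for 7 of the 9 members, but no member passed the test of sex. They were also positive for 12 of 12 homeostatic and 11 of 12 plaque-associated microglia markers, and for 0 of 13 choroid plexus markers. The only male in WT, replicate 5, was rich in choroid plexus. The labelled-sex coefficient was 0.49 for C1qa (SE 0.12, unadjusted p = 0.000882, adjusted p = 0.555), 0.40 for C1qb, 0.41 for C1qc and 0.40 for C4b. Of all genes, 6 passed, or 0.0316%, and 5.02% had an unadjusted p under 0.05. With sex read from sex-linked genes the coefficients were 0.45 for C1qa, 0.37 for C1qb, 0.38 for C1qc and 0.45 for C4b, with adjusted p of 0.353 to 0.408.

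Of 44 other complement genes on the lists used, 33 were tested and 3 rose in PBS-treated APP-PS1 mice, against 0.938% of all genes. All 3 were receptor genes. These were Itgax, Itgam and Itgb2, which encode the alpha chains of complement receptors 4 and 3 and the beta chain that both share. Itgax had 0.461 to 0.614 CPM in WT and 5.37 to 13 CPM in PBS-treated APP-PS1 mice, and its log2 fold change was 4.34 (adjusted p = 8.29e-06). Itgax is also one of the markers of plaque-associated microglia, and WT had 12 to 18 counts of it per library. Itgb2 (6.68 to 8.20 and 11.8 to 17.0 CPM) had 0.98 and Itgam (32.0 to 35.9 and 43.8 to 50.8 CPM) had 0.58, with adjusted p of 0.00109 and 0.0131. Itgam missed the threshold without the sex covariate (adjusted p = 0.0546) and with the choroid-rich libraries left out (adjusted p = 0.0972). The 3 other receptor genes tested had adjusted p above the threshold, C5ar2 among them.

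In the other roles, where the share of all genes that were higher was 0.938%, 0 of 9 activators of the classical and lectin routes, 0 of 2 of the alternative route, 0 of 3 of the terminal pathway and 0 of 13 regulators passed. Hc, the gene for C5, had a log2 fold change of -0.77 (adjusted p = 0.356), and C2, the partner of C4 in the C3-cleaving enzyme, had 0.26 (adjusted p = 0.798). Over these 33 genes the median log2 fold change was 0.11. In antibody-treated mice against PBS none of the 33 passed. Against WT the same 3 receptor genes did, at 4.52 for Itgax, 1.13 for Itgb2 and 0.74 for Itgam, where 1.76% of all genes were higher.

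**Figure D5:**
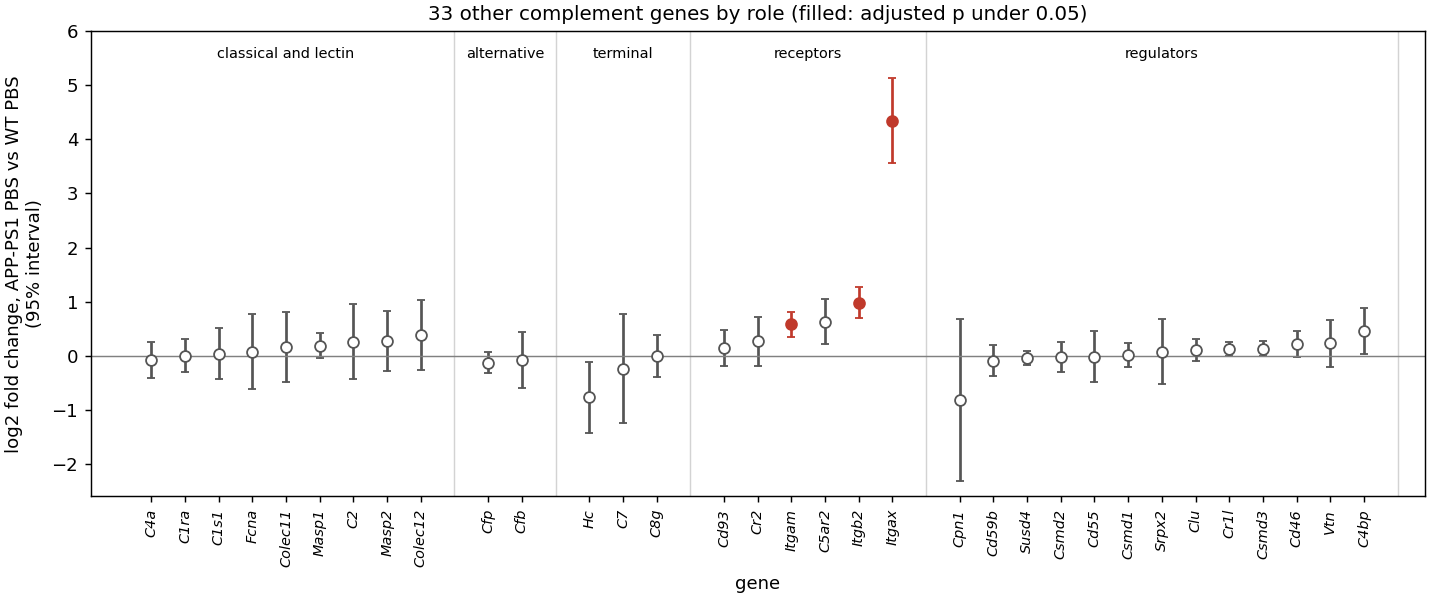
Fitted log2 fold changes with 95% intervals (y axis) of the 33 other complement genes tested, PBS-treated APP-PS1 against WT, ordered by role and size (x axis); filled points have an adjusted p under 0.05. Itgam, Itgb2 and Itgax, at 0.58, 0.98 and 4.34, are the filled points, and all lie among the receptors.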

How the data were processed

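The authors deposited 1 table of raw read counts per Ensembl gene for 15 stranded poly(A) libraries. The submitters' processing notes name Bowtie2 2.2.2 and HTSeq 0.11.2, beside FastQC and DESeq2, and build GRCm38; annotation and strand setting: not given in the sources used here. Bowtie2 does not align across introns, so reads over exon junctions can be lost. The 5 HTSeq summary lines, among them 20.0 to 25.9% of reads without a feature, were left out. Symbols and places came from GENCODE vM21.

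The deposited counts were fitted with edgeR 4.0.16 (R 4.3.3): TMM, filterByExpr, quasi-likelihood F test, all 15 libraries, group and labelled sex, adjusted p under 0.05 over 18974 genes. Standard errors are the log2 fold change over the root of F, and intervals are 95%. Correlations use log2 CPM (prior count 2). Members, lists and rules were chosen with earlier results of these data known. Named are the members, other complement genes past the threshold, the paralogs C4a and Cd59b, and the 3 genes most like each member (mean of at least 1 CPM); C5ar2, Hc, C2 and the genes beside C1q were chosen after their values were seen. A gene left out of the complement lists, and a gene like the C1q chains, are not reported here. The fit was tested on simulated counts. Marker lists of T cells, blood myeloid cells, oligodendrocytes and endothelium summed to 2.82 to 4.47, 1.30 to 5.21, 5345 to 7303 and 231 to 322 CPM, with none of their genes past the threshold. DESeq2 1.42.0, limma 3.58.1 (voom) and other settings were alternatives. Labels do not say that mice are litter-mates or not, and p-values measure the spread between them. For the 30 pairs of libraries within groups, squared differences were 7.94 to 39.4 times those of counting noise (chi-square per degree of freedom).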

Additional observations from a re-analysis of the deposited data

Results flagged for a closer look

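In 6 of 27 groups of 5 libraries, 1 library lay far from the other 4 by Dixon's criterion at the 95% level; chance flags about 1 group in 20. Of the C1q chains, C1qa was at 49.9 CPM in WT replicate 1, at 104 CPM in PBS-treated APP-PS1 replicate 4 and at 138 CPM in antibody-treated replicate 3, in each case the highest of its group. C1qb was at 43.4 CPM in the same WT library and at 83.3 CPM in the same PBS-treated library. These values are from the same mice, so they are not separate observations. C3 was at 10.0 CPM in PBS-treated APP-PS1 replicate 2, 1 of the libraries rich in choroid plexus RNA.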

How the results depend on the processing

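The 14 alternative settings and 15 runs that left out 1 library each kept the number of members past the threshold near the main one, with these exceptions. For PBS-treated APP-PS1 against WT it was 6, with 2 without the sex covariate and 0 in the mice of animal number series 85 alone (2 per group); for antibody-treated mice against WT it was 5, with 0 in series 85 alone, where fewer samples were fitted. Leaving out 1 library gave 5 to 6, 0 to 0, 5 to 5 and 0 to 0 members for the PBS, treatment, antibody against WT and sex comparisons. C4b and C3ar1 passed in 28 and each C1q chain in 27 of 29 alternatives for the first comparison.

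Over all genes, the first comparison gave 195 calls, and 361 with DESeq2, 115 without the sex covariate, 98 without the libraries rich in choroid plexus, 65 in series 83 and 2 in series 85. The treatment comparison gave 0, and 143 with DESeq2, 13 with no filter, 1 with its own groups only and 0 to 3 with 1 library left out. Antibody-treated mice against WT gave 369, and 199 without the rich libraries, 196 in series 83, 1 in series 85, 221 with their own groups only and 140 to 441 with 1 left out. Sex gave 6, and 18 with DESeq2, 20 with no filter, 13 with sex read from genes, 4 to 11 with 1 left out, and 0 with limma-voom, without the rich libraries and in series 83.

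Directions that turned were all of differences that did not pass, and the cause was not tested. In series 85 alone, C3 had -0.17 in the first comparison, -0.84 for treatment and -1.0 against WT, and for treatment C4b had -0.11 and C3ar1 -0.046. In series 83 alone, treatment gave -0.020 for C1qb, -0.074 for C1qc and -0.18 for C3ar1, and Serping1 had 0.16 against WT. Without the rich libraries, Cd59a had 0.21 in the first comparison, C3ar1 -0.11 for treatment and Serping1 0.11 against WT; with choroid plexus markers as a term these were 0.045, -0.028 and 0.25. C3ar1 had -0.0029 for treatment with its own groups only, and Serping1 had 0.0036 with limma-voom and 0.14 without the sex covariate, against WT. With 1 library left out, C3 ranged from -0.0885 to 0.91, from -0.38 to 0.63 and from -0.23 to 1.01 in the 3 comparisons, Cd59a from -0.56 to 0.28 and C4a from -0.15 to 0.046 and Cd59b from -0.13 to 0.047 in the first, C3ar1 from -0.077 to 0.12 and C4b from -0.060 to 0.22 for treatment, and Serping1 from -0.14 to 0.26 against WT.

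No paired analysis was possible because the labels give no replicate numbers that the groups share. With the animal number series (titles starting with 83 or 85, 3 and 2 mice per group; what the series stand for is not given) as a term in the fit, 5, 0, 5 and 0 members passed in the 4 comparisons, and of the members' calls only that of C5ar1 was lost. C5ar1 lay at 0.903 to 3.12 CPM in WT and PBS-treated mice.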
